A study of Mus musculus with 9 samples.

Results

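Cathepsins are the main proteases of the lysosome, and 9 genes of this system were followed across the skin arrays of a mouse lymphedema study. Of these genes, 5 encode cathepsins (Ctsb, Ctsz, Ctsc, Ctsh and Ctsl), Lgmn encodes the lysosomal protease legumain, and Cstb, Ctla2a and Ctla2b encode proteins that inhibit cathepsins. They were taken from the array annotation by gene symbol, with every clone that carries the symbol. This gave 27 cDNA clones of 42624 features on the array, of which 24 had a value on all 9 arrays. All 9 genes had at least 1 such clone, and they stand among 8644 named genes tested of 10554 named genes.

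The mice were female hairless SKH-1 animals, 3 weeks old at the start. In the lymphedema group the tail skin was incised around its circumference, methylene blue was injected to show the lymphatic trunks, and these were ablated by cautery. The sham group had the incision and the dye without cautery, and the normal group had no surgery. All tails were collected on day 14, so the model covers an acute phase. RNA of the distal tail skin of 9 mice per state was combined into 3 pools of 3 mice, and each pool was hybridized once to a cDNA array with 2 colors against RNA of whole mouse embryos (E17.5). The pools are the replicates, so n = 3 per state and every p-value measures the spread between pools.

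Values are log2 ratios of tail skin over embryo, centered on each array's median. A positive value thus means a ratio of skin to embryo above that of the median feature on the array. The labels put skin in Cy5 and the methods put it in Cy3. The deposited ratio was read as embryo over skin and its sign was turned, opposite to the dyes of the labels, because 25 embryonic genes then lay mostly below and 12 epidermal genes mostly above the array median, with list medians of −4.23 to −3.67 and 2.00 to 2.60 on the 9 arrays. The log base is not stated in the sources used here and was taken as 2. The sham arrays were not alike. Measured from the normal mean, 13 macrophage markers averaged 0.25, −0.06 and 1.15 on sham arrays 1, 2 and 3, and 9 skeletal muscle markers averaged 0.27, 0.73 and 1.86. Missing values set lymphedema array 1 with the normal arrays. Exactly these 4 arrays held a value for 186 features, and no other set of 4 arrays did so for more than 45. The members' comparisons are therefore also given without sham array 3 and with this division as a block in the fit, and the other lists are not.

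Most cathepsins are papain-like cysteine proteases that are made as inactive proenzymes, reach the endosome and lysosome through the mannose 6-phosphate pathway and are activated there at acid pH. They degrade endocytosed protein, trim antigens and the invariant chain for MHC class II, and can be secreted by macrophages into the matrix. Legumain cuts after asparagine and takes part in processing several cathepsins and antigens. Cystatins and stefins bind the active site of the papain-like cathepsins. The Ctla2 proteins of the mouse resemble the propeptide of a cathepsin and were first described in activated lymphocytes.

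Ctla2a and Ctla2b both lie on chromosome 13, and their promoters are alike. A cDNA clone may not tell these genes apart. Promoters cannot show this, and it was not tested, since transcript and clone sequences were not used. Windows of 250 bases before to 50 bases after the annotated start were taken from RefSeq (build GRCm38.p6), which held 8 windows for 6 of the 9 genes. The Ctla2a window shown lies on the minus strand at chr13:60936576-60936875 and that of Ctla2b on the minus strand at chr13:60897398-60897697. They shared 255 identical bases over 322 aligned columns (79.2%), and capitals mark their longest shared run of 36 bases.
Ctla2a: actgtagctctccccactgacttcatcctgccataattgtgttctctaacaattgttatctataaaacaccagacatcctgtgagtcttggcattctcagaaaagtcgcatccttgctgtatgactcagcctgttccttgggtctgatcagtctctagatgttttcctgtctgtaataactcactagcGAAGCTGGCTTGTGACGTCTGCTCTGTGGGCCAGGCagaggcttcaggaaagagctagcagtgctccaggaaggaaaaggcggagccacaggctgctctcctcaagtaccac
Ctla2b: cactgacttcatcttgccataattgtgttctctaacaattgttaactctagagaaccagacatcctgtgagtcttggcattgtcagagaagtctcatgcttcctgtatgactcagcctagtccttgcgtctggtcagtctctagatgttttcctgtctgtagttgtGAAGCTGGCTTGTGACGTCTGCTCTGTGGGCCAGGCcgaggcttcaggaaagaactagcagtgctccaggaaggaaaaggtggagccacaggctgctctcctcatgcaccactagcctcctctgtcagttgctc
The 24 other pairs of windows from different genes had 42.5% to 50.3% identical columns and no shared run over 10 bases. A second Ctla2a window had 68.4% with Ctla2b.

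Lgmn and Ctsl are shown because their windows hold CACGTG, the E-box core of the element through which TFEB and related factors act on lysosomal genes. The motif, which reads the same on both strands, was found in 2 of 8 member windows and in 7.15% of 32851 windows. The Lgmn window, 1 of 2 for this gene, lies on the minus strand at chr12:102439043-102439342, and the Ctsl window on the minus strand at chr13:64370471-64370770. Capitals mark the motif.
Lgmn: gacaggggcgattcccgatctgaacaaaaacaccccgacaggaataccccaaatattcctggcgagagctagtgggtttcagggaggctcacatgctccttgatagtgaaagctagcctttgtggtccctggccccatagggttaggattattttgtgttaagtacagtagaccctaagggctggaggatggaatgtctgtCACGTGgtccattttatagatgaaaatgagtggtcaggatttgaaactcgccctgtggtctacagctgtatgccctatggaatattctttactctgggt
Ctsl: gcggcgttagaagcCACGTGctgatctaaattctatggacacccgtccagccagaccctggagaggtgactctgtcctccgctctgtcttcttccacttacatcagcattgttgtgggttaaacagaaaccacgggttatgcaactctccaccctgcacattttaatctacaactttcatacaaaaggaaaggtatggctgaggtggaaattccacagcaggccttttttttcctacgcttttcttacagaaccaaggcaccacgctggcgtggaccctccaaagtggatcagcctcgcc
The longer palindrome TCACGTGA was found in 0 of the 8 windows and in 0.974% of all windows. GAGGAAGT, searched on both strands as a core of PU.1 binding, was found in 1 of the 8, that of Ctsc, and in 3.20% of all windows. These are matches of letters and say nothing of binding.

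In lymphedematous against normal skin, 5 of the 9 genes rose and none fell. The genes that rose were Ctla2a (4.98-fold), Lgmn (2.87-fold), Ctsz (2.54-fold), Ctla2b (2.41-fold) and Ctsb (1.81-fold), with a Benjamini-Hochberg adjusted p under 0.05 from limma over 8644 genes. Over all genes tested, 2.83% passed as higher and 0.602% as lower. On 8 of the 9 genes, all but Cstb, each lymphedema array lay above each normal array, which was true of 23.6% of all genes. Each of the 9 differences was positive, as were 62.0% of all genes, and their median log2 fold change was 0.86 against 0.10 over all genes. The study itself took up legumain, cathepsins, stefins and cytotoxic T lymphocyte-associated proteins from these same arrays. The direction of the members, and of the other stefins below, is therefore not independent evidence. More RNA per cell and more cells of a type cannot be told apart in whole skin.

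These calls depended on single arrays. The count of members that passed was 0 without lymphedema array 1, lymphedema array 2 or normal array 2. It was 1 without lymphedema array 3 (Ctla2b), normal array 1 (Ctla2a) or normal array 3 (Ctla2b), and 7 without sham array 1 or 3, where Ctsc and Ctsh also passed. With the division of missing values as a block the comparison rests on lymphedema array 1, and 0 members passed, with log2 differences of 0.25 for Ctsl to 1.99 for Ctla2a and adjusted p from 0.27 to 0.786 (limma).

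**Figure D1:**
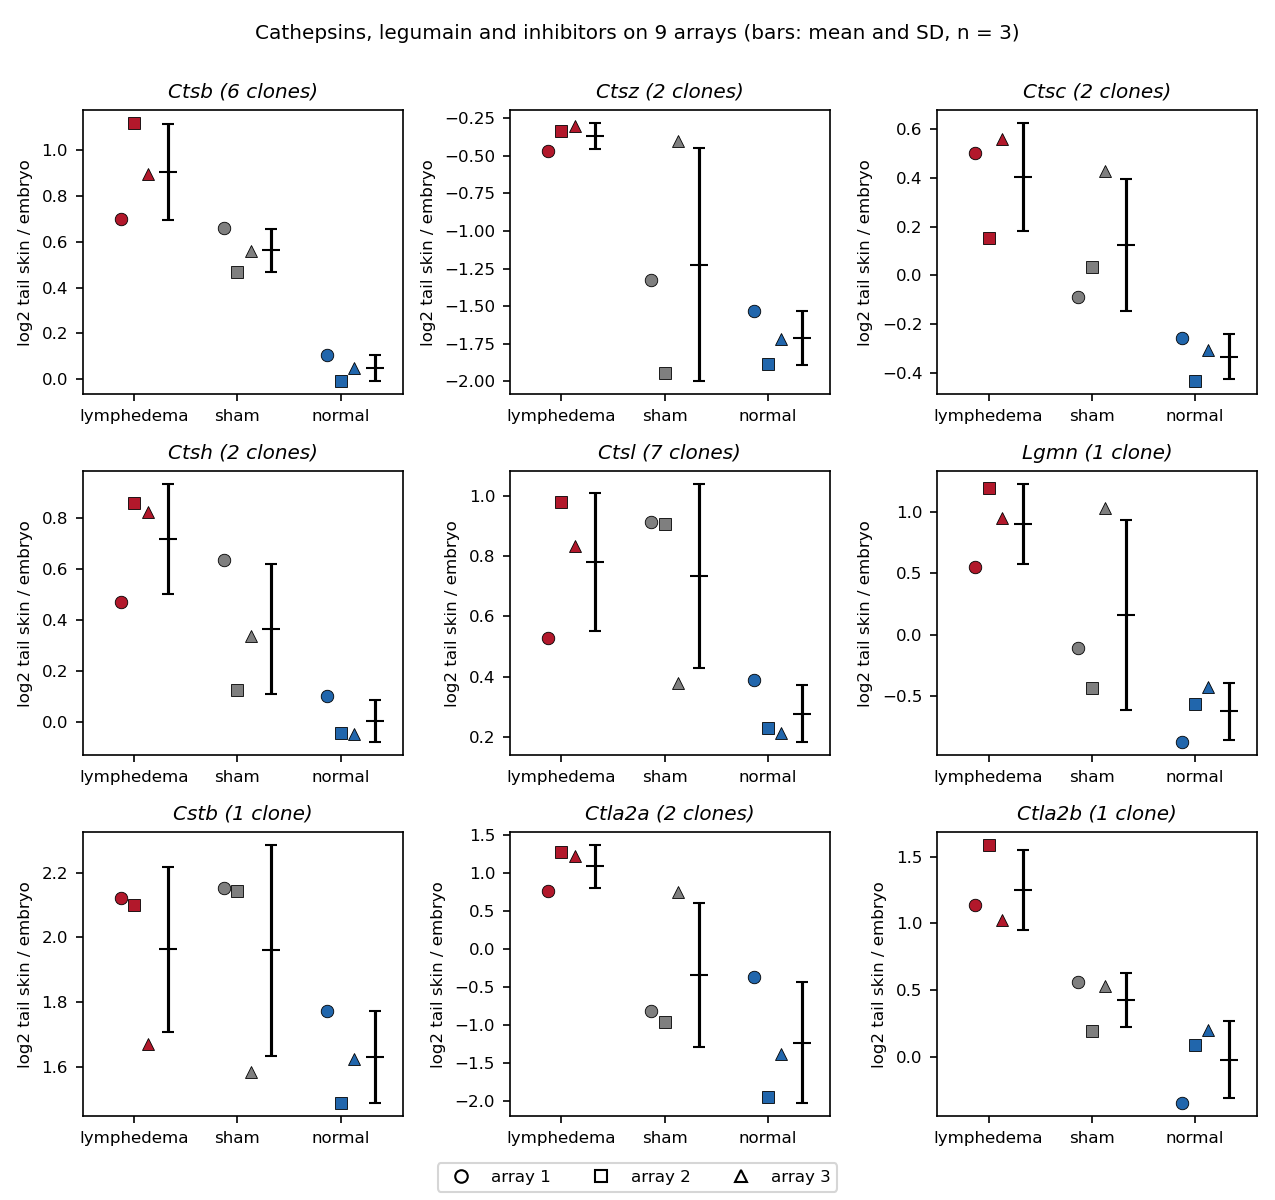
Log2 ratio of tail skin over embryo reference (vertical axis, a separate scale in each panel) for the 9 genes on the 3 lymphedema, 3 sham and 3 normal arrays. Points are arrays and bars are mean and SD (n = 3). Lymphedema arrays lie above normal arrays in every panel but that of Cstb, and sham array 3 lies near the lymphedema arrays for Lgmn, Ctsz and Ctla2a.

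Among the proteases, Lgmn had the largest difference. Its single clone read 0.55, 1.20 and 0.95 on the lymphedema arrays, −0.11, −0.43 and 1.03 on the sham arrays, and −0.87, −0.56 and −0.42 on the normal arrays. Lymphedema and normal did not overlap, and the sham arrays reached from the normal range to within the lymphedema range. The log2 fold change of lymphedema against normal was 1.52 (standard error 0.331, adjusted p = 0.0367 from limma). The call ended without any 1 of the lymphedema or normal arrays.

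Ctsz, a lysosomal carboxypeptidase also called cathepsin X, lay below the array median on every array in the mean of its 2 tested clones. The lymphedema arrays read −0.47, −0.34 and −0.30, the sham arrays −1.33, −1.94 and −0.40, and the normal arrays −1.53, −1.89 and −1.72. The lymphedema arrays were the closest group of the 3 (SD 0.0865, against 0.776 in sham and 0.179 in normal skin), and sham array 3 stood apart from the other sham arrays. The difference of lymphedema from normal was 1.34 (standard error 0.311, adjusted p = 0.0416 from limma), a call that ended without any 1 of the lymphedema or normal arrays. Both tested clones passed, at 1.42 and 1.27 (adjusted p = 0.0261 and 0.0476 over 30702 features, limma). A further Ctsz clone had no value on lymphedema array 2 and was not tested. It read −0.21 and −0.05 on lymphedema arrays 1 and 3, −0.35, −1.46 and 0.13 on the sham arrays and −0.65, −1.21 and −1.02 on the normal arrays, again with sham array 3 at the top of its group. The alternatives with 2 of 3 values per state take this clone in. Ctsz then had 1.20 with missing values left and 1.16 with imputation, and neither passed (adjusted p = 0.0730 and 0.0717 from limma).

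Ctsb, an endopeptidase with carboxypeptidase activity and one of the most abundant lysosomal proteases, had the tightest normal values of the 9 genes. Averaged over 6 clones it read 0.70, 1.12 and 0.89 on the lymphedema arrays, 0.66, 0.47 and 0.56 on the sham arrays and 0.10, −0.01 and 0.05 on the normal arrays. The 3 states formed a series with no overlap between neighbors, lymphedema highest and normal lowest. Lymphedema against normal was 0.86 (standard error 0.168, adjusted p = 0.0275 from limma), and the call ended without any 1 of the lymphedema or normal arrays.

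The clones of Ctsb fell into unlike readings. Clones are numbered here in the order of the table. Clones 3, 4 and 5 passed in lymphedema against normal skin, with log2 fold changes of 1.39, 1.62 and 1.27 (adjusted p = 0.0231, 0.00311 and 0.0149 over features, limma). Clone 4, the largest, read 1.10, 1.78 and 1.04 in lymphedema, 0.56, 0.30 and 0.30 in sham and −0.31, −0.38 and −0.25 in normal skin. Clone 3 read 0.27, 0.90 and 0.96 in lymphedema, 0.77, −0.30 and 0.44 in sham and −0.49, −0.99 and −0.56 in normal skin, and clone 5 had a like order of states. Clones 7 and 2 had differences of 0.56 and 0.35 and did not pass. Clone 7 read 2.65, 2.61 and 2.42 in lymphedema, 2.34, 2.74 and 1.83 in sham and 1.95, 2.03 and 2.02 in normal skin, with lymphedema and normal apart and sham across both. Clone 1 had −0.05 (95% interval −0.58 to 0.49), with 0.79, 0.85 and 1.12 in lymphedema, 0.72, 1.22 and 1.61 in sham and 0.88, 0.98 and 1.03 in normal skin. Clone 6 lacked lymphedema array 2 and read 0.28 and 0.26 in lymphedema, 0.63, 0.43 and 0.43 in sham and 1.01, 0.06 and 0.63 in normal skin. The alternatives with 2 of 3 values per state take clone 6 in. Ctsb then had 0.73 with missing values left and did not pass (adjusted p = 0.0550 from limma). With imputation it had 0.68 and passed (adjusted p = 0.0478 from limma). Clone sequences were not used here, and whether each clone reads the same transcript was not tested.

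Ctsc, dipeptidyl peptidase I, which activates the granule serine proteases of neutrophils, mast cells and cytotoxic lymphocytes, also had clones that read unlike each other. The gene average was 0.50, 0.15 and 0.56 on the lymphedema arrays, −0.09, 0.03 and 0.43 on the sham arrays and −0.26, −0.44 and −0.31 on the normal arrays. Every operated pool, sham or lymphedema, was above every normal pool. The difference of lymphedema from normal was 0.74 (standard error 0.192) and missed the threshold (adjusted p = 0.0628 from limma). Clone 1 alone passed, at 1.42 (standard error 0.277, adjusted p = 0.0151 over features, limma). It read 0.82, 0.58 and 0.85 in lymphedema, −0.31, −0.07 and 0.81 in sham and −0.65, −0.81 and −0.53 in normal skin, so sham array 3 again lay within the lymphedema range. Clone 2 had a difference of 0.06 (95% interval −0.42 to 0.54), with lymphedema values of 0.18, −0.28 and 0.27 on both sides of its normal values of 0.14, −0.06 and −0.08.

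Ctsh, mainly an aminopeptidase, had 0.47, 0.86 and 0.82 on the lymphedema arrays, 0.63, 0.12 and 0.34 on the sham arrays and 0.10, −0.05 and −0.05 on the normal arrays. The order was lymphedema, sham, normal in the means, with sham array 1 above lymphedema array 1 and all sham arrays above all normal arrays. Lymphedema against normal was 0.72 (standard error 0.189, adjusted p = 0.0653 from limma). Clone 1 read 0.26, 0.50 and 0.76 in lymphedema, 0.35, −0.10 and 0.38 in sham and 0.00, −0.20 and −0.20 in normal skin, and clone 2 read 0.68, 1.22 and 0.89 in lymphedema, 0.91, 0.35 and 0.29 in sham and 0.20, 0.11 and 0.10 in normal skin. Both clones kept lymphedema apart from normal and had differences of 0.64 and 0.79, and neither passed (adjusted p = 0.15 and 0.091 over features, limma).

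Ctsl, the endopeptidase whose propeptide the Ctla2 proteins resemble, had the smallest difference of the proteases. It averaged 0.53, 0.98 and 0.83 over 7 clones on the lymphedema arrays, 0.91, 0.91 and 0.38 on the sham arrays and 0.39, 0.23 and 0.21 on the normal arrays. Here sham arrays 1 and 2 were high and sham array 3 was at the level of normal array 1, the reverse of Lgmn and Ctsz. Lymphedema against normal was 0.50 (standard error 0.20, adjusted p = 0.185 from limma). Of the 7 clones 6 were positive, none passed, and the differences ran from −0.11 for clone 7 to 0.91 for clone 6. Clone 6 read 1.24, 1.75 and 1.72 in lymphedema, 1.65, 1.73 and 0.64 in sham and 0.82, 0.56 and 0.61 in normal skin. Clone 7 read 1.21, 1.41 and 0.97 in lymphedema, 2.18, 1.90 and 0.76 in sham and 1.48, 0.97 and 1.47 in normal skin. On both of these clones sham arrays 1 and 2 were high and sham array 3 was low. Of the pair, only on clone 6 did the lymphedema arrays clear the normal ones. Sham array 3 was not the lowest sham array on clones 1, 3 and 4. Their sham arrays read 0.66, 1.38 and 0.82 on clone 1, −0.72, −1.02 and −0.88 on clone 3, and 0.58, 0.30 and 0.48 on clone 4.

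Of the inhibitors, Ctla2a had the largest difference of all 9 genes. Its values were 0.76, 1.28 and 1.21 on the lymphedema arrays, −0.81, −0.96 and 0.75 on the sham arrays and −0.37, −1.95 and −1.38 on the normal arrays. All lymphedema pools lay above all others, although sham array 3 came close to lymphedema array 1. The difference from normal was 2.32 (standard error 0.459, adjusted p = 0.0275 from limma), and by size it ranked 12 from the top among 8644 genes. The call remained without normal array 1 and ended without any other 1 of the lymphedema or normal arrays. Clone 1 read 0.89, 1.30 and 1.41 in lymphedema, −0.83, −0.86 and 1.02 in sham and −1.53, −2.28 and −1.49 in normal skin. Its difference of lymphedema from normal was 2.96 (standard error 0.411, adjusted p = 0.00183 over features, limma), and no lymphedema value came near a normal one. Clone 2 read 0.63, 1.25 and 1.02 in lymphedema, −0.79, −1.06 and 0.48 in sham and 0.78, −1.62 and −1.27 in normal skin. Lymphedema array 1 thus lay below normal array 1 on this clone, and its difference of 1.67 did not pass (standard error 0.509, adjusted p = 0.0887 over features, limma).

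Ctla2b had 1.14, 1.59 and 1.03 on the lymphedema arrays, 0.56, 0.20 and 0.53 on the sham arrays and −0.35, 0.09 and 0.20 on the normal arrays. The lymphedema arrays lay above all others, while sham array 2 and normal array 3 met at the same level. Unlike Ctla2a, its sham array 3 was not apart from sham array 1. Lymphedema against normal was 1.27 (standard error 0.216, adjusted p = 0.0191 from limma), the smallest adjusted p of the 9 genes. The call remained without lymphedema array 3 or normal array 3 and ended without any other 1 of those arrays.

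Cstb, stefin B, an inhibitor that acts in the cytosol and nucleus, was the only gene of the 9 whose lymphedema and normal arrays overlapped. It read 2.12, 2.10 and 1.67 on the lymphedema arrays, 2.15, 2.14 and 1.58 on the sham arrays and 1.77, 1.49 and 1.63 on the normal arrays. On the operated tails, array 3 of each state lay with the normal arrays. Lymphedema against normal was 0.33 (95% interval −0.13 to 0.79, adjusted p = 0.40 from limma). A further Cstb clone had 4 values, 0.32 in lymphedema, 0.40 in sham and 1.07 and 0.60 in normal skin, and was not tested.

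**Figure D2:**
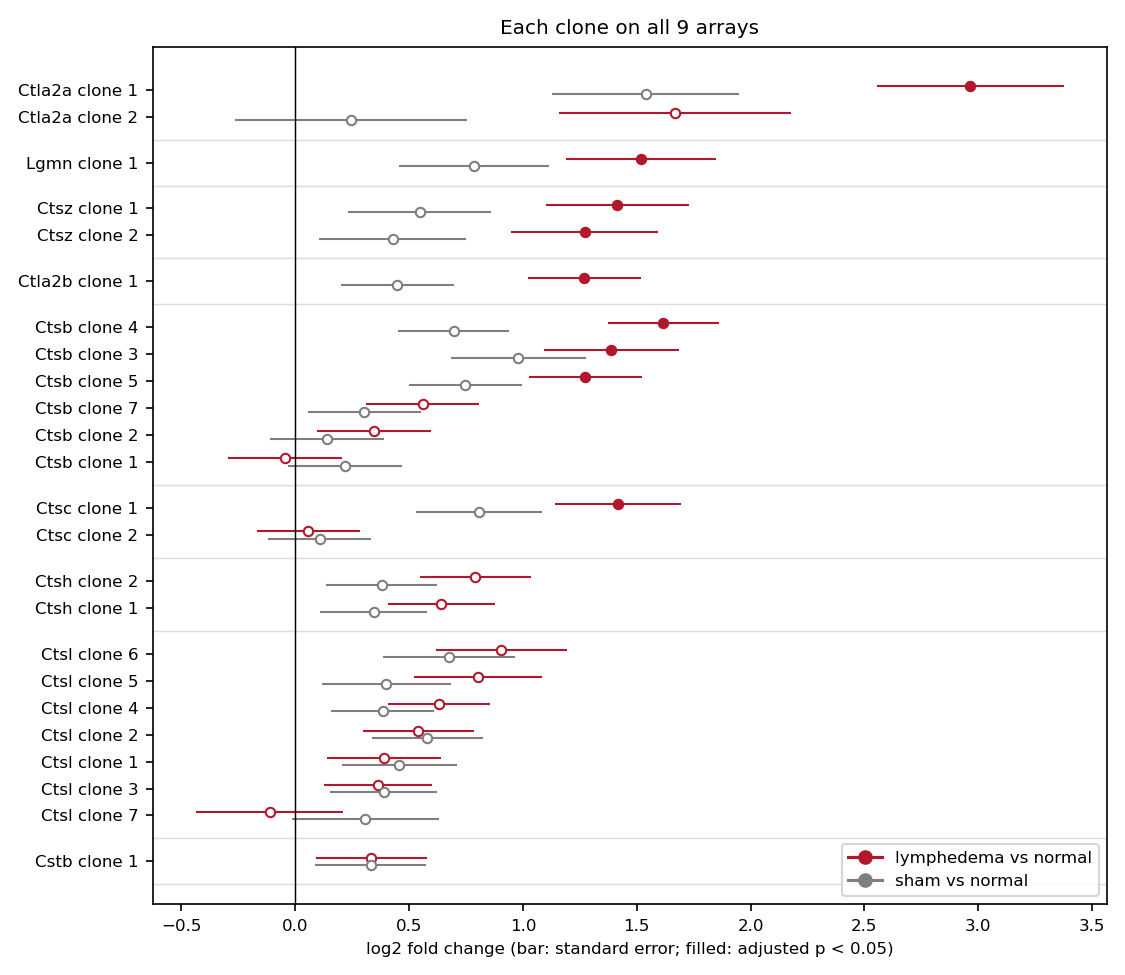
Log2 fold change of each of the 24 tested clones (horizontal axis) with its standard error, for lymphedema against normal in red and sham against normal in gray; filled points passed at an adjusted p under 0.05 over all features. Of the 24 clones 9 are filled, all for lymphedema against normal, and the clones of Ctsb run from −0.05 to 1.62.

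Among the 24 tested clones, 22 were positive in lymphedema against normal skin, against 62.1% of all features. Of these, 9 passed as higher and 0 as lower by limma, where 2.30% of all features passed as higher. The 9 were 3 clones of Ctsb, both of Ctsz and 1 each of Ctsc, Lgmn, Ctla2a and Ctla2b. The clones without a value on every array, given above, are not counted here. Clones of a gene share their RNA and are not replicates.

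In lymphedematous against sham skin all 9 differences were positive, as were 58.9% of all genes, and none passed. Of the 24 tested clones 18 were positive, against 58.2% of all features, and the differences of clones ran from −0.42 to 1.42. By limma, 0 members passed (4 at an unadjusted p under 0.05, namely Ctsz, Lgmn, Ctla2a and Ctla2b), and SAM also passed 0. Over all genes 0.0116% passed as higher and 0.0116% as lower, and 643 of the 8644 had an unadjusted p under 0.05. The largest log2 differences were 1.42 for Ctla2a (standard error 0.459, adjusted p = 0.505 from limma), 0.86 for Ctsz, 0.82 for Ctla2b and 0.74 for Lgmn. On Ctsb, Ctla2a and Ctla2b each lymphedema array lay above each sham array, as on 6.63% of all genes. Ctsh, Ctsb and Ctsc had 0.35, 0.34 and 0.28. For Ctsl the difference was 0.05 (95% interval −0.39 to 0.48), and for Cstb it was 0.00 (95% interval −0.46 to 0.46), which turned to −0.04 without centering. The median over the members was 0.35, against 0.06 over all genes.

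The calls of 3 members turned on sham array 3. Without it, 3 members passed in lymphedema against sham skin, namely Ctla2a at 1.97 (adjusted p = 0.0377 from limma), Ctsz at 1.27 (adjusted p = 0.0227) and Lgmn at 1.17 (adjusted p = 0.0437). Over all 19 alternatives the adjusted p reached up to 0.997 for each of the 3. Without sham array 2 the same genes had 1.11, 0.50 and 0.44, and none passed. Ctsb, Ctsh and Ctla2b had 0.34, 0.34 and 0.87 without sham array 3, and did not pass. Without sham array 3 the differences of Ctsl and Cstb turned to −0.13 and −0.18, and neither passed. With the division of missing values as a block 0 members passed, and the differences ran from −0.08 for Cstb to 1.59 for Ctla2a. For lymphedema against sham this fit gave the members the same values as leaving out lymphedema array 1, so it is not a separate check.

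In sham against normal skin all 9 genes were also higher on average, as were 59.6% of all genes, and none passed. By limma, 0 members passed (4 at an unadjusted p under 0.05, namely Ctsb, Ctsc, Ctsl and Lgmn), and SAM passed 0. Over all genes 0% passed as higher, and 685 of the 8644 had an unadjusted p under 0.05. The differences were 0.89 for Ctla2a, 0.78 for Lgmn, 0.51 for Ctsb, 0.49 for Ctsz, 0.46 for both Ctsc and Ctsl, 0.45 for Ctla2b, 0.36 for Ctsh and 0.33 for Cstb, with a median of 0.46 against 0.06 over all genes. On Ctsb, Ctsc and Ctsh each sham array lay above each normal array, as on 9.72% of all genes. All 24 clones were positive, against 59.6% of all features. Without sham array 3, Ctsz, Lgmn and Ctla2a had 0.08, 0.35 and 0.35, while Ctsl and Cstb had 0.63 and 0.52. With the division of missing values as a block, which links sham to normal through lymphedema array 1 alone, 0 members passed. The differences were then 0.60 for Ctsc, 0.57 for Cstb, 0.40 for Ctla2a, 0.34 for Ctsz, 0.28 for Ctla2b, 0.26 for Lgmn, 0.21 for Ctsb, 0.08 for Ctsl and −0.01 for Ctsh. This comparison and that of lymphedema share the 3 normal arrays.

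**Figure D3:**
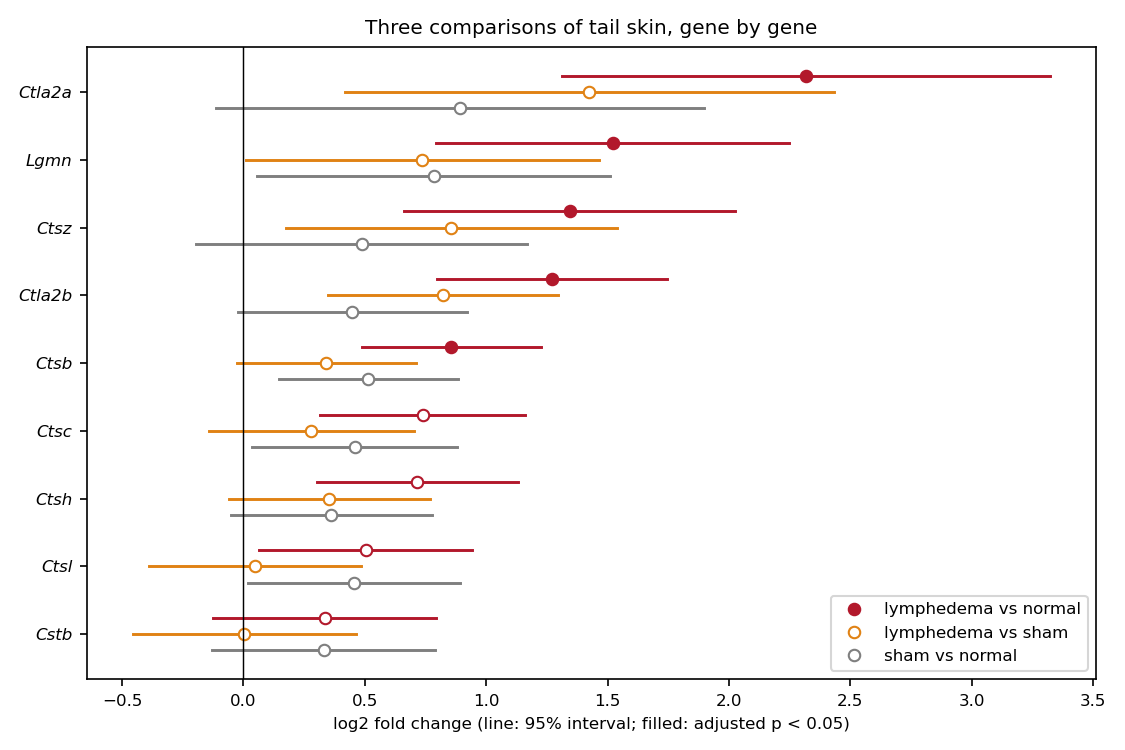
Log2 fold change of each gene (horizontal axis) with its 95% interval for lymphedema against normal, lymphedema against sham and sham against normal; filled points passed at an adjusted p under 0.05. The 5 filled points all belong to lymphedema against normal, and the other 2 comparisons have positive points with none filled.

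Different patterns over the arrays can be read from the distance of each pool to the normal mean. The lymphedema arrays of Ctla2a, Lgmn and Ctsz ran from 1.17 to 2.51. On sham array 3 these genes read 1.98, 1.65 and 1.31, beside 0.42, 0.51 and 0.39 on sham array 1 and 0.27, 0.19 and −0.23 on sham array 2. Ctsl and Cstb read 0.10 and −0.04 on sham array 3, beside 0.64 and 0.52 on sham array 1 and 0.63 and 0.51 on sham array 2. Ctsb and Ctla2b had between 0.22 and 0.61 on all sham arrays. Ctsc read 0.24, 0.37 and 0.76 on sham arrays 1, 2 and 3, and Ctsh 0.63, 0.12 and 0.33. The Ctsl values are averages over clones that differed on sham array 3. The pattern of Ctsb and Ctla2b was not sharply apart from that of Ctla2a, Lgmn and Ctsz. Over the 9 arrays Ctla2b and Ctsb correlated with Lgmn at 0.877 and 0.850 (Pearson), beside 0.876 for Ctla2a and 0.938 for Ctsz. Ctsl and Cstb correlated with Lgmn at 0.410 and 0.119 and with each other at 0.750. Ctsl also correlated with Ctsb, at 0.807.

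Markers of myeloid cells moved with the first of these patterns. The 13 macrophage markers averaged 1.14, 1.20 and 1.18 on the lymphedema arrays and 0.25, −0.06 and 1.15 on the sham arrays, and 7 of the 13 passed in lymphedema against normal skin (Lyz2, Fcgr1, Aif1, Fcer1g, C1qa, C1qc and Ccr2), with a list median of 1.28. The 8 neutrophil markers averaged 1.52, 1.83 and 1.75 in lymphedema and 0.26, 0.59 and 1.41 in sham skin, and 4 passed. The 5 mast cell markers averaged 0.70, 0.47 and 0.61 in lymphedema and −0.22, −0.03 and 0.61 in sham skin, and 0 passed. Fibroblast and endothelial markers were also high on sham array 3 (0.79 and 0.66), and 1 of 9 and 2 of 5 passed in lymphedema against normal skin. Lists not made of cell markers were high on sham array 3 too, with 0.83 for 8 class II presentation genes and 0.71 for 9 other cystatins. Keratinocyte markers, 11 in all, stayed between −0.04 and 0.23 on lymphedema and sham arrays, with 0 passed. The 5 markers of T and NK cells had a median difference of −0.16 and 0 passed, and neither did any of the 2 B cell, 6 adipocyte and 9 muscle markers. The part of these cells in the members' results was not tested.

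**Figure D4:**
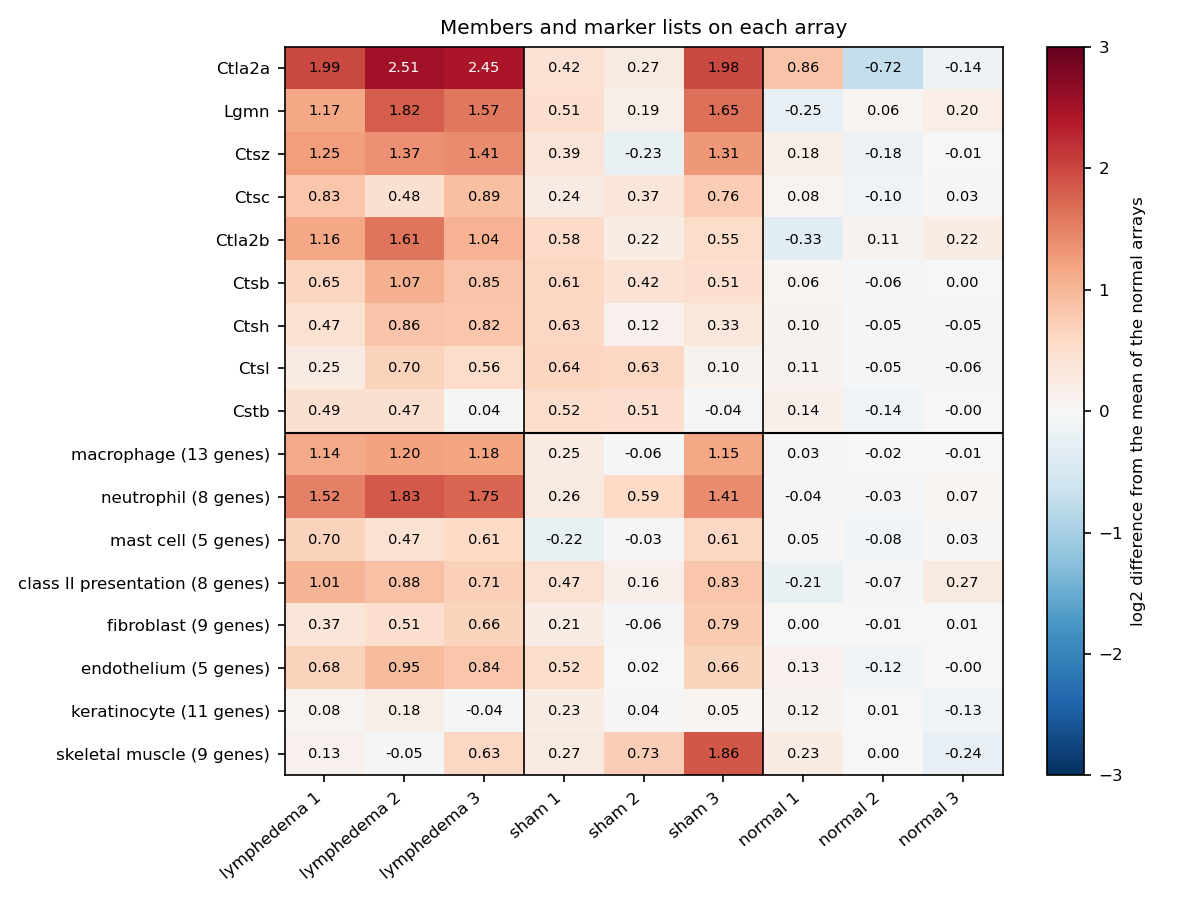
Distance of each array from the mean of the normal arrays on the log2 scale (color), for the 9 genes in the upper rows and the mean of marker lists in the lower rows. Sham array 3 is near the lymphedema arrays for Ctla2a, Lgmn, Ctsz and the macrophage list (1.15), and has the highest skeletal muscle value (1.86).

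None of the 10 other cathepsins measured, of 17 listed, passed in lymphedema against normal skin. Of these 8 were positive, and their median was 0.32 against 0.10 over all genes. Ctsk, the collagen-degrading cathepsin of osteoclasts, had 0.93 (standard error 0.346, adjusted p = 0.16 from limma), Ctsf 0.53, Ctso 0.38, and Ctse, an aspartic protease, 0.36. Ctsd, the main aspartic protease of the lysosome, had 0.11, with lymphedema values of 1.35, 1.62 and 1.27 and normal values of 1.35, 1.30 and 1.27. Ctsa, a serine carboxypeptidase, had 0.31. Ctsj, Ctsm, Cts6 and Cts8, of the placental cluster of rodents, had 0.32, 0.01, −0.21 and −0.73. Whether the members differ from the other cathepsins was not tested.

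Of 9 other cystatins measured, of 19 listed, 3 rose in lymphedema and all belong to the stefin A cluster. Stfa3 was higher by 2.37 in lymphedema (adjusted p = 0.00289 by limma, standard error 0.276), with 1.01, 1.32 and 1.06 on the lymphedema arrays, −0.32, −0.27 and 0.64 on the sham arrays and −1.65, −0.90 and −1.15 on the normal arrays. All sham arrays lay between the other states. For Stfa1 and Csta1 the rise was 1.90 and 1.46 (limma, adjusted p = 0.00491 and 0.0137). The stefin A genes of the mouse are near-identical copies, so which of them a clone reads is uncertain. Fetub, a fetuin, had 1.37 and missed the threshold (adjusted p = 0.0708). Cst3, cystatin C, the main secreted inhibitor of cathepsins, had 0.34, Kng1 0.49, Ahsg −0.06, Cst12 −0.19 and Cst13 −0.77. Serpinb3a, a serpin that in the mouse inhibits both cysteine and serine proteases, rose by 1.09 (adjusted p = 0.0238), and Serpinb6a had 0.39. None of these cystatins or serpins passed in lymphedema against sham or in sham against normal skin, and they were not refitted under the alternatives.

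**Figure D5:**
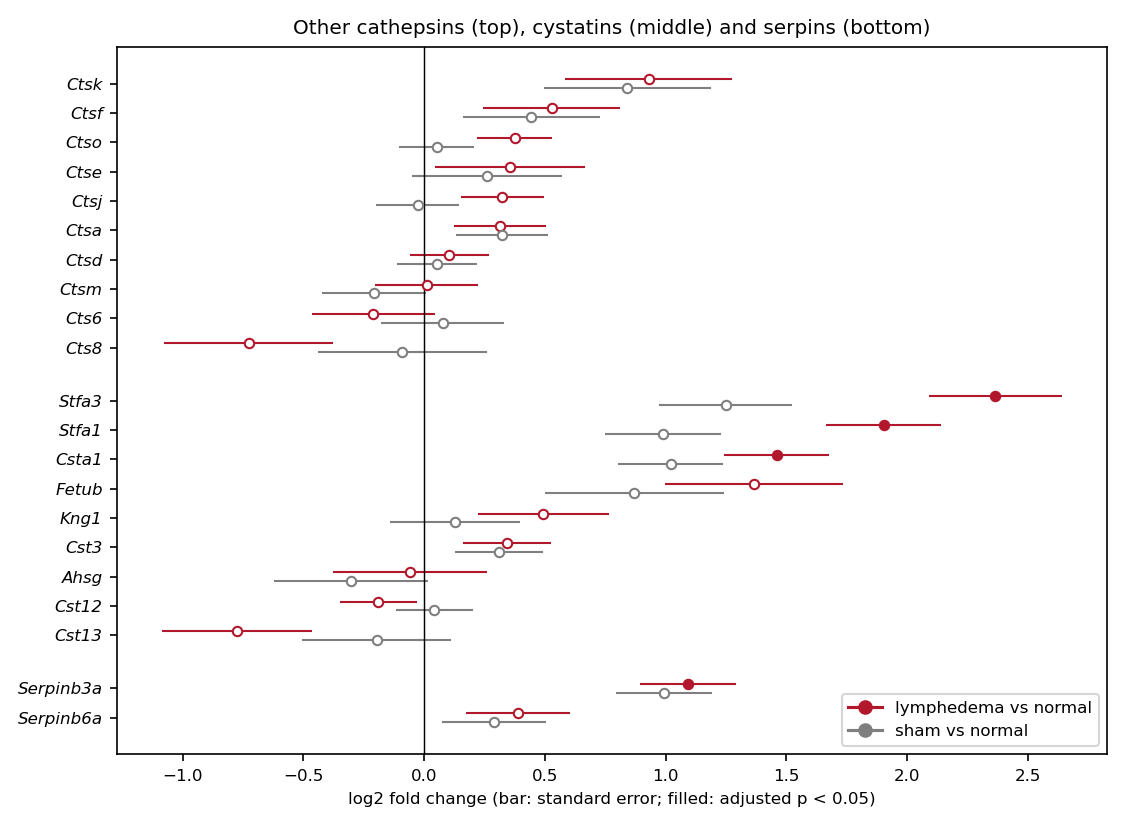
Log2 fold change (horizontal axis) with its standard error for other cathepsins, cystatins and serpins, in lymphedema against normal (red) and sham against normal (gray); filled points passed at an adjusted p under 0.05. Filled points are Stfa3, Stfa1, Csta1 and Serpinb3a, and no other cathepsin is filled.

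Of 27 lysosomal hydrolases measured 1 rose in lymphedema, Prcp, a prolylcarboxypeptidase, by 0.82 (limma, adjusted p = 0.0371, standard error 0.182), 22 were positive, and their median was 0.26 against 0.10 over all genes. None passed among 15 lysosomal membrane proteins (10 positive, median 0.30), 10 subunits of the proton pump that acidifies the lysosome (9 positive, median 0.29) or 15 sorting and transcription factors (7 positive, median −0.01), the mannose 6-phosphate receptors and Tfeb included. Over all genes 62.0% were positive. Of 8 genes of MHC class II presentation, the pathway in which cathepsins and legumain process antigen, 2 rose, H2-Aa by 2.03 and H2-DMa by 1.04, with a median of 0.96. Of 8 granule proteins, among them the proteases that Ctsc activates, only Srgn, the proteoglycan core of granules, rose, by 2.14 (adjusted p = 0.0399), and the median was 0.24. In lymphedema against sham and in sham against normal skin none of these lists held a gene that passed.

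The genes whose 9 array values were most like those of a member differed between members. For Lgmn they were Alox5ap, the activator of leukotriene synthesis, Pf4, platelet factor 4, and Rarres2, with Pearson correlations of 0.990, 0.982 and 0.981 over the 9 arrays. For Ctsz they were Cyba, a subunit of the phagocyte oxidase, C1qc and Gtf3c1 (0.985, 0.976 and 0.975), and for Ctla2a they were Gtf3c1, Myh10 and Cxcl12 (0.976, 0.963 and 0.963). For Ctsb the closest were S100a11, Hspa8 and Gpx1 (0.974, 0.969 and 0.969), for Ctsh Ppic, Rfng and Rpl10 (0.974, 0.971 and 0.959), and for Ctla2b Ahcy, S100a13 and Tmem176a (0.972, 0.968 and 0.964). Ctsc was most like Jak2, Igsf10 and Spon1 (0.954, 0.953 and 0.949), Ctsl like Eif4e, Bcas1 and Ube2r2 (0.967, 0.962 and 0.935), and Cstb like Papss1, Sec11c and Lysmd3 (0.966, 0.960 and 0.958). These were the highest among all other genes tested, over arrays that share the 3 states and the reference, and they are given as a description.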

How the data were processed

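Tail skin of 3 states was profiled on 9 cDNA arrays, 3 per state, each against embryo RNA. The authors extracted features with GenePix, subtracted background and normalized dyes, and deposited 1 log ratio per feature and array, with no base stated, which was read here as log2. Their filter on reference signal and their imputation are not in the table, and the centering they applied is not stated. Between 1.34% and 12.6% of the values of an array were empty, and 26 read as null. Signal intensities were not used here. The annotation names 20678 features by 1 gene, 953 by several (not used), and 20993 have no name here.

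Here the sign was turned and each array was centered on its median. Clones with a value on all 9 arrays were averaged per gene. Linear models with group as the only term were fitted over all 9 arrays with limma 3.58.1 (lmFit and eBayes) in R 4.3.3, and p-values were adjusted by Benjamini-Hochberg over 8644 genes, or 30702 features for clones, at 0.05. The steps were tested on simulated data. Number of arrays limits the precision. The text names all 9 members, every other cathepsin or cystatin with values on all arrays, up to 4 passing genes per list and the 3 genes most like each member. All passing macrophage markers are listed beyond that rule. The members and lists were chosen with earlier results of these data known. Alternatives were other scalings, 2 of 3 values per state with and without imputation (k = 10), 2 groups only, SAM at 5%, the replicate number or the division of missing values as a block, the median clone and each array left out. Plots were made in Python 3.11.15 with matplotlib 3.10.9.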

Additional observations from a re-analysis of the deposited data

How the results depend on the processing

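No member changed direction in lymphedema against normal skin under any of the 19 alternatives, and the 5 members called became 4 without centering, 4 with 2 of 3 values and imputation (which also changes the genes tested), 6 scaled to 1 median absolute deviation, 7 with 2 groups only and 5 with the median clone. The count was 3 after quantile normalization, 3 with 2 of 3 values and missing values left, 8 with SAM at 5%, 3 with the replicate block and 0 with the division of missing values as a block. The cause was not tested. With each array left out it ran from 0 to 7. Over the alternatives Ctla2b was called in 14, Ctla2a in 13, Lgmn in 11, Ctsb in 10, Ctsz in 7, Ctsh in 5, Ctsc in 4, Ctsl in 1 and Cstb in 0. In lymphedema against sham the count was 0 under each alternative except 3 without sham array 3, so leaving arrays out gave 0 to 3, and in sham against normal it was 0 throughout.

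Differences that turned sign were all small. Cstb in lymphedema against sham had −0.037 without centering. It had −0.075 with the division as a block, which here gave the same values as leaving out lymphedema array 1. With 1 array left out it ran from −0.184 without sham array 3 to 0.150 (−0.065 without lymphedema array 2). Ctsl ran from −0.129 without sham array 3 to 0.173 (−0.052 without lymphedema array 2). Ctsh in sham against normal had −0.010 with the division as a block.

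Over all genes, 245 higher and 52 lower in lymphedema against normal (82.5% higher) became 154 and 56 without centering (73.3%), 112 and 72 after quantile normalization (60.9%), 614 and 228 with 2 groups only, 1629 and 209 with SAM, and 0 and 0 with the division as a block (979 at an unadjusted p under 0.05). These scalings moved the median of all genes to 0.04 without centering and −0.02 after quantile normalization, from 0.10. The replicate block gave 116 and 29. Same-numbered arrays had deviations that correlated at −0.244 to 0.279, with 1 of 9 pairs over 0.1 and 3 of 9 arrays closest to their own number, so the numbers were not taken to pair the pools. Leaving out arrays gave 9 to 484 genes higher and 2 to 139 lower. The number of pools limits the precision. In lymphedema against normal, Ctsc, Ctsh, Ctsl and Cstb did not pass by limma, while SAM passed all of these but Cstb.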
